A study of Mus musculus with 6 samples.

Results

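The mouse mitochondrial genome carries its own small set of genes, and all of them have a row in the count tables of 6 sorted acinar cell libraries. They were chosen by name, as every row whose symbol starts with mt-, and they number 37 of 55367 genes: 13 mRNAs, 2 ribosomal RNAs and 22 transfer RNAs. All 6 libraries belong to 1 group. They came from pancreas of mice labelled Pdx1-Cre; Klf5-mCherry-CreERT2 with no treatment, so the Cre and Klf5 alleles are shared by every library and there is no other genotype to set them against. Pdx1 drives Cre in the embryonic pancreatic epithelium, from which duct and endocrine cells also derive. Each library was made by a modified Smart-seq2 protocol from 300 cells sorted for GFP, although the genotype label names no GFP allele, and the age of the animals is not in the labels used here. Although title and protocol describe RNA-seq, the molecule field reads genomic DNA. The counts are treated as RNA here, and whether some came from mitochondrial DNA was not tested. The labels do not say that the libraries are from different animals, so the p-values below measure only the spread between libraries, which may be technical.

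Both strands of the mitochondrial genome are transcribed as long precursors, and most rRNAs and mRNAs are released when the tRNAs that punctuate them are cut out. The mRNAs encode core subunits of respiratory complexes I, III and IV and of ATP synthase (complex V), while the remaining subunits are encoded in the nucleus. Acinar cells make and secrete digestive enzymes, and oxidative phosphorylation supplies ATP for that synthesis. Over evolution pieces of mitochondrial DNA have been inserted into nuclear chromosomes, so a read from such a stretch can match both genomes.

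The libraries held 4670819 to 7072270 counts. All 8 acinar markers were detected and together made up 65542 to 259285 CPM (counts scaled to the same library total), against 9.78 to 23.3 for the 4 ductal markers and 6.60 to 1336 for the 5 endocrine markers. The library names carry a number that no label explains, and it separates replicates 1 to 3 (set A) from replicates 4 to 6 (set B). Nuclear rRNA took 37.4 to 45.9% of counts in set A and 59.0 to 60.2% in set B, while 16 digestive enzyme genes took 36.2 to 44.8% and 11.8 to 19.9%. Counts over olfactory and vomeronasal receptor genes, 1999 genes that acinar cells are not known to use, ran at 25.7 to 38.6 per megabase in set A and at 50.8, 323 and 108 in replicates 4, 5 and 6. Replicate 5 thus stood apart. In bulk samples such as these, fewer cells of a type and less RNA per cell cannot be told apart.

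The sequences show how closely some of these genes are matched in the nucleus. They were read from GENCODE vM21 transcripts (GRCm38, the assembly also called mm10). Capitals mark the bases at which a mitochondrial gene and its annotated nuclear copy differ. The first 60 bases of mt-Nd3 (MT, 9459 to 9518) and of its copy Gm28438 (chr1:24613060-24613119, minus strand) hold the single difference between them, T3C, counted from the first base of the gene with the mitochondrial base first.
mt-Nd3: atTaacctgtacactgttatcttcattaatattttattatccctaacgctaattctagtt
Gm28438: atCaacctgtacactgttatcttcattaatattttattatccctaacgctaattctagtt
The start of mt-Co3 (MT, 8607 to 8666) has no difference from its copy Gm28437 (chr1:24613912-24613971, minus strand), nor does the rest of the 783 aligned bases.
mt-Co3: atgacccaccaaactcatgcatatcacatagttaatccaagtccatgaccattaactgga
Gm28437: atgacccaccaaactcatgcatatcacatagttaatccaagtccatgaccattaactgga
By contrast, bases 667 to 726 of mt-Nd2 (MT, 4580 to 4639) differ from Gm13339 (chr2:22590336-22590395, minus strand) by A668G, C681T, T711C and T726C, part of 17 differences over 510 aligned bases.
mt-Nd2: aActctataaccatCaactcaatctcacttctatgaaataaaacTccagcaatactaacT
Gm13339: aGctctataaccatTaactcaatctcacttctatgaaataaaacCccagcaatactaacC

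The 37 genes held 1.24, 1.16, 1.47, 1.39, 1.04 and 1.30% of all counts in replicates 1 to 6, a mean of 1.26% ± 0.155 (SD, n = 6). Sets A and B overlapped, and replicate 5 was the lowest, with an exact Clopper-Pearson 95% interval of 1.03 to 1.05% that covers counting error only. Outside nuclear rRNA counts the mean share was 2.64% ± 0.585. Within the mitochondrial counts rRNAs took most, with 62.2 to 74.5% per library, and mRNAs took 25.4 to 37.7%. The 22 tRNAs together had 305 counts in all 6 libraries.

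Levels below are CPM per kilobase of gene length, which allows genes of different length to be compared. The large ribosomal RNA mt-Rnr2 (16S; MT, 1094 to 2675) was the most abundant member. It had 48889, 35673, 55538, 54302, 30446 and 53709 counts in replicates 1 to 6, or 58.1% of all mitochondrial counts, and ranked 20 of 55367 genes by mean CPM. Its level was 4653 ± 570 (SD, n = 6), and no library lay far from the rest. The small ribosomal RNA mt-Rnr1 (12S; MT, 70 to 1024) had a level of 1033, 819.6, 1189, 2366, 1266 and 1477 in replicates 1 to 6, with replicate 4 highest and all of set B above set A. Its mean was 1358 ± 541, and it ranked 28. The difference mt-Rnr2 minus mt-Rnr1 on the log2(level + 1) scale was 1.85 ± 0.45 (SD, n = 6) and positive in 6 of 6 libraries (two-sided exact test flipping signs in all 64 ways, p = 0.031 after Benjamini-Hochberg adjustment over 10 such pairs). That is also the smallest p 6 libraries allow.

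The 13 mRNAs fell into a high and a low class with no gene between them. The high class holds mt-Cytb, mt-Nd1, mt-Co1, mt-Nd2, mt-Nd6, mt-Nd4 and mt-Nd5, with mean levels from 303 to 916.5 and 751 to 8851 counts per gene and library. The low class holds mt-Nd3, mt-Co3, mt-Co2, mt-Atp6, mt-Nd4l and mt-Atp8, with mean levels from 0.690 to 14.9 and 506 counts in all 6 libraries, 0.335% of the mRNA counts. The lowest gene of the high class was 20.3 times the highest gene of the low class. The olfactory and vomeronasal rate predicts 1.71 counts over the length of the low-class genes. That rate comes from nuclear genes and does not measure background from mitochondrial DNA or precursor RNA. It therefore cannot show whether the low class lay above such background.

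**Figure D1:**
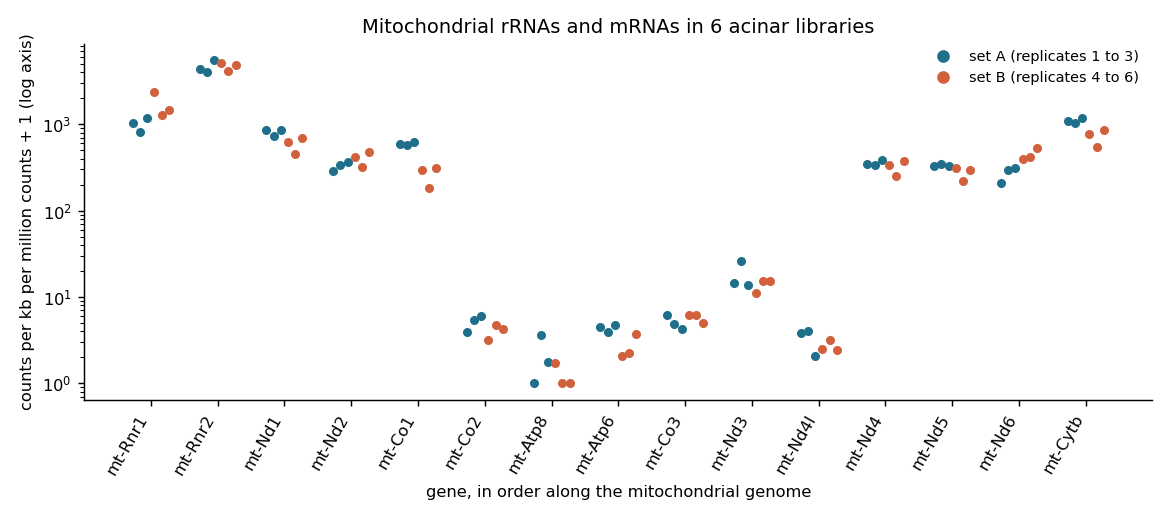
Level of the 2 rRNAs and 13 mRNAs in each of the 6 libraries, 1 point per library, in genome order, as counts per kilobase scaled to the library total (CPM per kilobase) plus 1 on a log axis, with set A in blue and set B in orange. Mean levels of the high-class mRNAs lie between 303 and 916.5 and those of the low class at 14.9 or below.

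Complex I, the NADH dehydrogenase through which most electrons enter the chain, had members at both ends. Its core membrane subunit mt-Nd1 (MT, 2751 to 3707) was second among mRNAs at 848, 732, 864, 614, 447 and 694 in replicates 1 to 6, with set B below set A. The mt-Nd2 level ranged from 290 to 476, that of mt-Nd4 (MT, 10167 to 11544) from 253 to 380 and that of mt-Nd5 (MT, 11742 to 13565) from 221 to 342. These 3 genes encode the antiporter-like subunits of the membrane arm, and replicate 5 was the lowest library for mt-Nd4 and mt-Nd5. The light-strand gene mt-Nd6 (MT, 13552 to 14070, minus strand) had levels of 205, 296, 308, 399, 417 and 534, with all of set B above set A. It shares 14 bases with mt-Nd5 on the opposite strand, and since no source states that counting used strand, reads from mt-Nd6 and from antisense RNA over it cannot be told apart. The remaining 2 complex I genes were in the low class. mt-Nd3 (MT, 9459 to 9806) had 33, 48, 28, 24, 23 and 35 counts and a level of 14.9 ± 5.10, and mt-Nd4l (MT, 9877 to 10173) had 2 to 6 counts and a level of 2.0 ± 0.815.

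For complex III the mitochondrial genome encodes only cytochrome b, which carries electrons from ubiquinol inside that complex. Its gene mt-Cytb (MT, 14145 to 15288) was the highest mRNA by level, with 1097, 1032, 1192, 778, 539 and 860 in replicates 1 to 6 and a mean of 916.5 ± 239. It stood above mt-Nd1 in 6 of 6 libraries.

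Complex IV, cytochrome c oxidase, passes the electrons to oxygen and its 3 largest subunits are mitochondrially encoded. The catalytic subunit mt-Co1 (MT, 5328 to 6872) had levels of 592, 570, 613, 297, 180 and 307, so that set A and set B did not overlap. Its mean was 427 ± 187, the widest relative spread of the high class (coefficient of variation 0.438). mt-Co2 (MT, 7013 to 7696), which receives the electrons from cytochrome c, had only 14, 17, 22, 10, 12 and 16 counts and a level of 3.61 ± 1.06. mt-Co3 (MT, 8607 to 9390) had 29, 17, 16, 28, 19 and 22 counts and a level of 4.46 ± 0.882. Thus 1 of 3 subunits of the same complex carried nearly all of its counts.

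Complex V makes ATP from the proton gradient, and both of its mitochondrial mRNAs were in the low class. mt-Atp6 (MT, 7927 to 8607), part of the proton channel, had 17, 11, 16, 5, 4 and 13 counts and a level of 2.53 ± 1.12. mt-Atp8 (MT, 7766 to 7969) had 0, 3, 1, 1, 0 and 0 counts. A library with no count allows up to 3, which is 0.424 to 0.642 CPM over these libraries. The end of mt-Atp8 (MT, 7897 to 7969) overlaps the next gene: the 43 bases in capitals are also the start of mt-Atp6. How reads over 2 genes were counted is not given in the sources used here.
mt-Atp8: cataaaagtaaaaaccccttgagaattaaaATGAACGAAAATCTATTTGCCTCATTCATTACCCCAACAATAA

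In the order of mean levels, 3 steps among the high class and at its edge held in every library: mt-Cytb exceeded mt-Nd1, mt-Nd1 exceeded mt-Co1 and mt-Nd5 exceeded mt-Nd3 in 6 of 6 libraries. The step from mt-Nd5 to mt-Nd3 was 4.29 ± 0.42 on the log2(level + 1) scale. Neighbours among mt-Co1, mt-Nd2, mt-Nd6 and mt-Nd4 changed places in 2 or 3 of 6 libraries, so no single order holds for all 6. Some changes followed the sets. The level of mt-Co1 exceeded that of mt-Nd2 in every library of set A and lay below it in every library of set B. That of mt-Nd6 lay below mt-Nd4 throughout set A and above it throughout set B. Within the low class, mt-Nd3 exceeded mt-Co3 in 6 of 6 libraries, as mt-Nd4l exceeded mt-Atp8, while mt-Co3, mt-Co2, mt-Atp6 and mt-Nd4l changed places.

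Of the 6 low-class genes, 5 lie in a stretch with an annotated nuclear counterpart. On chromosome 1, between 24611535 and 24616197 on the minus strand, 7 annotated genes lie in the same order as mitochondrial positions 6381 to 11042. The 2 spans are 4663 and 4662 bases long. For each mitochondrial gene the share of its 50-base windows that also occur exactly in an annotated nuclear transcript was counted. It was 100% for mt-Co2, 99.9% for mt-Co3, 99.5% for mt-Atp6, 98.8% for mt-Nd4l and 98.0% for mt-Nd3. It was 62.2% for mt-Nd4 and 51.1% for mt-Co1, 8.19% for mt-Nd2, 7.61% for mt-Nd5 and 0% for mt-Nd1, mt-Nd6, mt-Cytb and mt-Rnr1. The exception was mt-Atp8, in the low class with 0% of windows shared. In the colinear block the annotated copies of mt-Co2 and mt-Atp6 leave a gap of 233 bases. The mitochondrial genome has 230 bases between the 2 genes, which include most of mt-Atp8. The copy of mt-Co2 ends at base 681 of the gene's 684, so these lengths start at different bases and do not show a difference. The genome sequence of that gap was not used here. These shares come from annotated transcripts and not from the whole genome, so they are lower bounds. How the counting treated reads with more than 1 alignment is not given in the sources used here, and its part in the low levels was not tested. For the 5 genes at 98.0% or more, a level cannot be assigned to the mitochondrial or the nuclear copy and is uncertain.

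**Figure D2:**
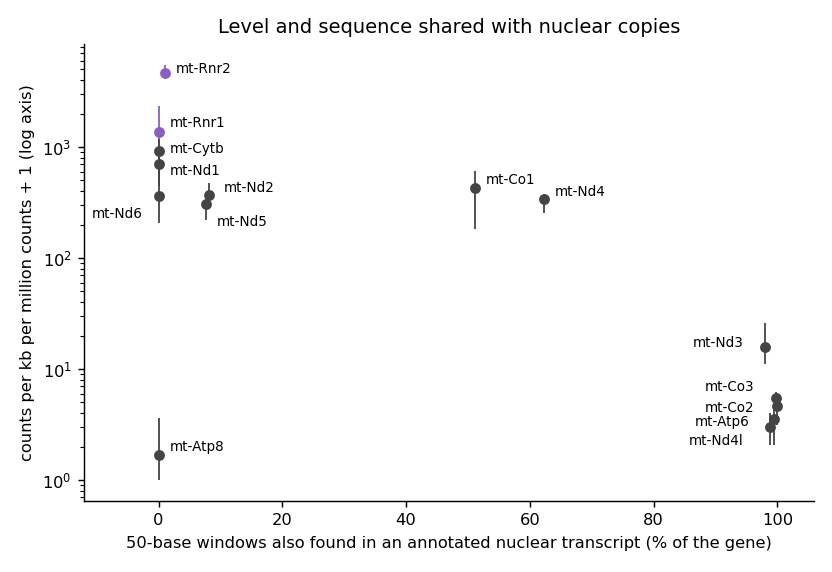
Mean level of each rRNA (purple) and mRNA (dark) against the share of its 50-base windows found in an annotated nuclear transcript, with the lowest and highest library as vertical bars and level plus 1 on a log axis. The 5 mRNAs at 98.0% or more and mt-Atp8 at 0% lie at 14.9 or below.

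The copies themselves had counts of the same small size as the genes they match. Gm28661 had 87 counts against 91 for mt-Co2, Gm10925 had 94 against 66 for mt-Atp6, Gm28437 had 138 against 131 for mt-Co3, and Gm10222 had 21 against 22 for mt-Nd4l. Each of these 4 copies is identical to its gene over all aligned bases. Gm28438, with its 1 difference from mt-Nd3, had 65 counts against 191. Where a gene runs on past its copy, the gene alone was high: Gm28439 matches the first 876 bases of mt-Nd4 without a difference and had 28 counts against 17608, and Gm29216 matches the last 492 bases of mt-Co1 at 98.8% identity and had 85 against 25159. The more diverged copies of mt-Co1 and mt-Nd2 on chromosome 2, Gm13340 and Gm13339, had 0 counts, which allows up to 3 counts each over the 6 libraries.

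Contrasts between complexes were tested within libraries as differences of mean log2(level + 1). Complex IV mRNAs lay below heavy-strand complex I mRNAs by a difference of -2.27 ± 0.17 and below mt-Cytb by -5.39 ± 0.23 (SD, n = 6; exact sign-flip test, adjusted p = 0.031 each). Complex V lay below complex IV by -3.24 ± 0.30 and mt-Cytb above heavy-strand complex I by 3.12 ± 0.31, each in 6 of 6 libraries (exact adjusted p = 0.031). Both complex V genes are in the low class. Their contrast with complex IV was -6.09 with summed counts and -4.32 with a pseudocount of 0.1. With only unshared windows as gene length, mitochondrial genes with fewer than 10 such windows were left out. There it was -8.99 and set mt-Atp8, with 5 counts in 6 libraries, against mt-Co1 alone. Without overlapping or near-identical genes no complex V gene was left. The size is thus not fixed, and the direction rests on low-class genes. Complex IV minus complex I depended on the low class: without mt-Atp8 and the 5 genes with near-identical copies it was -0.03 (exact adjusted p = 0.94), and with only unshared windows as gene length it was 0.58 (exact adjusted p = 0.125). Complex IV minus mt-Cytb was -1.19 in the former (exact adjusted p = 0.044) and -0.18 in the latter (exact adjusted p = 0.25). The contrast of mt-Cytb with heavy-strand complex I kept its sign in both, at 1.16 (exact adjusted p = 0.044) and 0.75 (exact adjusted p = 0.050). It was positive in 6 of 6 libraries in both, so its unadjusted sign-flip p stayed at the smallest possible value, 0.031. Adjusted p-values in these alternatives are over the pairs run in each setting. Their rise here comes from other pairs and not from this contrast. The 12 heavy-strand mRNAs averaged -2.99 ± 0.65 below mt-Nd6 (exact adjusted p = 0.031), but 0.39 above it without the same 6 genes (exact adjusted p = 0.26). With counts summed over genes in place of the mean, it was -0.017 (exact adjusted p = 0.97). The rRNAs lay 5.58 ± 0.45 above the mRNAs (exact adjusted p = 0.031), and 2.48 above them without those 6 (exact adjusted p = 0.044). Those 6 genes are the low class, set apart by these same levels. Leaving them out therefore raises the mRNA mean by design, and the p-values without them are no independent test.

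Dividing each gene's whole count by its number of unshared windows changed the ranking within the high class. Reads inside those windows were not counted apart. The measure holds only if reads from shared stretches were left out of the counts, which is not known. It matters most for mt-Nd4, with 502 of 1329 windows unshared, and mt-Co1, with 731 of 1496. In CPM per 1000 unshared windows, mt-Cytb had 957.5 ± 250, mt-Nd4 922 ± 123, mt-Co1 902 ± 395 and mt-Nd1 738 ± 164, followed by mt-Nd2 at 419 ± 78.6, mt-Nd6 at 398 ± 127 and mt-Nd5 at 337 ± 48.7. In this measure mt-Co1 was the highest and mt-Nd6 the lowest of the 7 in replicates 1 to 3, whereas mt-Nd4 was the highest and mt-Nd5 the lowest in replicates 4 to 6. The ratio of highest to lowest was 5.52, 3.69 and 3.81 in set A and 2.71, 2.82 and 3.14 in set B, which did not overlap. With 100-base windows the sets overlapped.

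The make-up of the mitochondrial mRNA pool also differed between the library sets. As a share of all mitochondrial mRNA counts, mt-Co1 held 20.4, 20.2 and 19.7% in set A and 12.7, 10.6 and 12.0% in set B. mt-Nd6 held 2.38, 3.52 and 3.33% against 5.73, 8.21 and 7.02%, and mt-Nd2 held 7.49% ± 0.669 against 12.4% ± 0.339 (SD, n = 3). Smaller shifts were seen for mt-Nd4, at 10.5 to 10.9% in set A against 12.9 to 13.2% in set B, and for mt-Cytb, at 27.8% ± 0.694 against 24.3% ± 0.820. For these 5 genes the sets did not overlap (exact permutation p = 0.1 each, the smallest that 3 against 3 libraries can give), while mt-Nd1 (exact permutation p = 0.4) and mt-Nd5 (exact permutation p = 0.3) overlapped. Scaled to mitochondrial mRNA counts in the same way, 33.8% of the 8723 genes with enough counts to be tested were higher in set B without overlap and 3.93% were lower, so the 3 genes that were higher are read against a common pattern. Shares sum to 100%, so a fall in 1 gene raises the others. Without replicate 5 the log2 differences in share were -0.70 for mt-Co1, 1.06 for mt-Nd6 and 0.72 for mt-Nd2, close to -0.78, 1.19 and 0.73 with it.

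**Figure D3:**
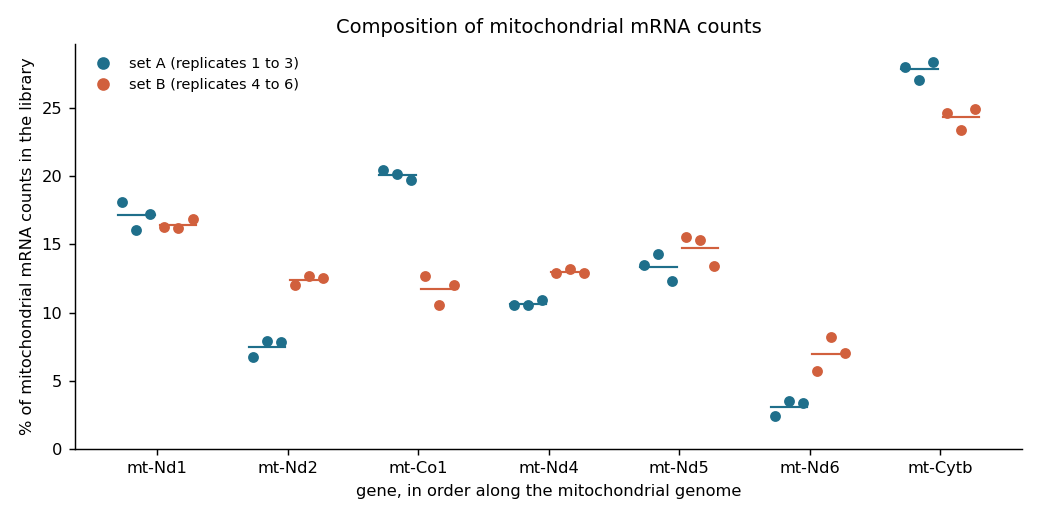
Share of a library's mitochondrial mRNA counts, in percent, held by each of the 7 high-class mRNAs, with 1 point per library, set A in blue, set B in orange and a line at each set's mean. mt-Co1 is at 19.7 to 20.4% in set A and 10.6 to 12.7% in set B, and mt-Nd6 is at 2.38 to 3.52% and 5.73 to 8.21%.

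Ratios of raw counts between members, chosen after their values were seen, need no scaling to library size. The ratio of mt-Co1 to mt-Nd2 was 3.04, 2.55 and 2.53 in set A and 1.06, 0.834 and 0.961 in set B. The ratio of mt-Rnr2 to mt-Rnr1 was 7.03, 8.21 and 7.68 against 3.53, 5.39 and 5.38. The ratio of mt-Nd6 to mt-Nd5 was 0.177, 0.246 and 0.271 against 0.370, 0.537 and 0.522, and that of rRNA to mRNA counts was 1.77, 1.65 and 2.05 against 2.83, 2.93 and 2.28. None of these 4 ratios overlapped between the sets. How often ratios of other gene pairs do so was not counted. In CPM, 19% of the 8723 genes tested were higher in set B without overlap and 13.4% lower, so such separation is common here. The nuclear rRNA share, the enzyme share and the receptor gene background given above also did not overlap between the sets. Neither did the 8 acinar markers, at 207634 to 259285 CPM in set A and 65542 to 108898 in set B, nor the 2 immune markers, which summed to 0.142 to 1.88 CPM in set A and 2.69 to 7.49 in set B with Cd68 at 0 in some libraries. Their part in the ratios cannot be told apart from that of the unexplained number in the library names.

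**Figure D4:**
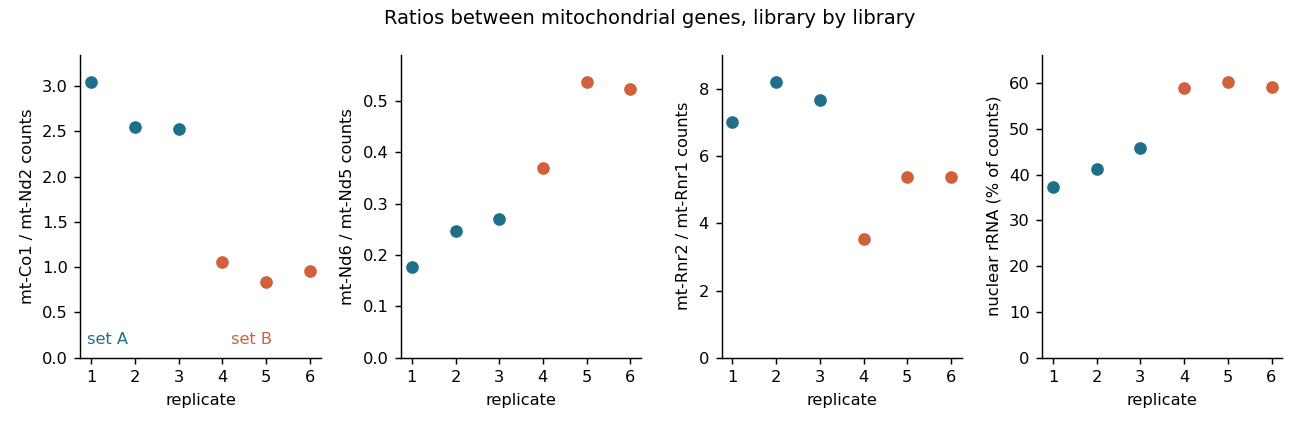
Ratios of raw counts of mt-Co1 to mt-Nd2, mt-Nd6 to mt-Nd5 and mt-Rnr2 to mt-Rnr1, and in the last panel the nuclear rRNA share in percent of counts, for replicates 1 to 6, with each axis starting at 0, set A in blue and set B in orange. The sets do not overlap in any of the 4 panels.

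Across all genes the sets were compared with edgeR's quasi-likelihood test and Benjamini-Hochberg adjustment over 8723 genes tested, of which 0.0115% passed an adjusted p of 0.05 and 25.9% an unadjusted p of 0.05. Of the 37 members 15 had enough counts to be tested. None passed the adjusted threshold in edgeR and 3 passed unadjusted (mt-Co1, mt-Atp6 and mt-Tq). DESeq2 called 1 member, mt-Co1, and 6.1% of the 11876 genes it gave an adjusted p, so a call of 1 in 15 is near its background. mt-Co1 averaged 914 CPM in set A and 404 in set B, a log2 difference of -1.31 (SE 0.36, edgeR adjusted p = 0.090). In DESeq2 it was -1.43 (adjusted p = 0.0034). Leaving out 1 library decided the call, since without replicate 4 edgeR gave -1.57 (adjusted p = 0.035) and without replicate 5 it gave -1.03 (adjusted p = 0.00086). These fits called 22.6% and 8.12% of all genes tested. Without replicate 5 mt-Rnr1 at 0.86 (edgeR adjusted p = 0.015) and mt-Nd6 at 0.73 (edgeR adjusted p = 0.022) were called higher in set B as well; with all libraries they were 0.61 (adjusted p = 0.35) and 0.58 (adjusted p = 0.26). Scaled to all counts, the dominant mt-Rnr2 averaged 7360 CPM in set A and 7364 in set B. Its edgeR log2 difference was -0.16 (adjusted p = 0.81). In CPM, 3 of the 15 tested members did not overlap and were higher in set B (mt-Rnr1, mt-Nd6, mt-Tq), against 19% of the genes tested. Another 5 of the 15 did not overlap and were lower (mt-Nd1, mt-Co1, mt-Atp6, mt-Nd5, mt-Cytb), against 13.4%. These calls depend on the scaling to all counts. Outside nuclear rRNA counts, mt-Cytb averaged 0.218% in set A and 0.204% in set B, and the sets overlapped. They also overlapped for the 13 mRNAs together, at 0.782 and 0.837%. Complex IV mRNAs stayed lower in set B without overlap, at 0.158 and 0.101%. The 2 rRNAs together, mostly mt-Rnr2, were higher in set B without overlap on this scale, at 1.44 and 2.21%. Among the members too low to be tested, mt-Tv had 1 count in each library of set A and 0 in set B. Per mitochondrial mRNA count, 6 of the 15 tested members were higher without overlap and 2 lower, beside the shares of 33.8% and 3.93% given above.

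Mature tRNAs are short, folded RNAs without poly(A) tails, and Smart-seq2 starts cDNA synthesis at poly(A). The part of this in the tRNA counts was not tested. The 22 genes had 305 counts over 1501 bases in 6 libraries. Their mean log2(level + 1) lay 4.14 ± 0.52 below that of the mRNAs, in 6 of 6 libraries (SD, n = 6; exact sign-flip test, adjusted p = 0.031). The size of this contrast depended on the genes taken. It was 5.79 with counts summed over genes and 2.80 with only genes of at least 10 counts. It was 7.24 without mt-Atp8 and the 5 genes with near-identical copies. These are the 6 low-class mRNAs, so leaving them out could only raise it. The 14 heavy-strand genes had 76 counts, or 79.8 per kilobase, and the 8 light-strand genes 229, or 417 per kilobase. Heavy-strand counts were 20, 30, 6, 12, 5 and 3 in replicates 1 to 6 and light-strand counts 38, 42, 16, 44, 57 and 32. The light-strand tRNA genes were higher per kilobase in 6 of 6 libraries, with a log2(level + 1) difference, heavy minus light, of -1.38 ± 0.76 (SD, n = 6; exact sign-flip test, adjusted p = 0.031). Restricted to tRNAs with at least 10 counts it was -1.41 but positive in 3 of 6 libraries (exact adjusted p = 0.25). Since no source states that counting used strand, reads from a tRNA and from antisense RNA over its gene cannot be told apart. The contrast is thus between genes and does not show which strand's RNA was counted.

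Counts were led by 2 light-strand tRNA genes. mt-Tp, the proline tRNA next to the control region, had 25, 22, 7, 18, 9 and 10 counts. mt-Tq, the glutamine tRNA, had 5, 5, 8, 11, 29 and 13 counts, highest in replicate 5. mt-Te (glutamate) had 21 and mt-Tc (cysteine) 20 counts in all. mt-Tl1, a leucine tRNA, had 8, and 4 tRNAs had no count in any library: mt-Tw, mt-Ts1, mt-Td and mt-Tk. Of these, all but mt-Tw lie within mitochondrial positions 6381 to 11042, the stretch colinear with the chromosome 1 block. mt-Tg and mt-Tr, with 3 and 6 counts, lie there too. Among the tRNA genes in that stretch only mt-Ts1 is a light-strand gene. No annotated nuclear transcript shares their windows, but the genome sequence was not used. Its part in their counts and in the strand contrast was not tested. The sequences below are of the transcribed strand. The tRNA with the most counts is mt-Tp (MT, 15356 to 15422, minus strand). With it are mt-Tq (MT, 3772 to 3842, minus strand) and mt-Tk (MT, 7700 to 7764), which lies between mt-Co2 and mt-Atp8.
mt-Tp: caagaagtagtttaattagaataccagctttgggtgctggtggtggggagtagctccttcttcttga
mt-Tq: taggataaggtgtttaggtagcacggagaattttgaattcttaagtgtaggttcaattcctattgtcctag
mt-Tk: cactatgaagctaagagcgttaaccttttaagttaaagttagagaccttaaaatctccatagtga
The 4 tRNAs with at least 20 unannotated bases on 1 side, mt-Tf, mt-Tn, mt-Tc and mt-Tp, had 148 counts or 544 per kilobase. The other 18, packed against their neighbours, had 157 or 128 per kilobase. Single genes weigh heavily in both rates: mt-Tp had 91 of the 148 counts and mt-Tq 71 of the 157. How reads that cross into a neighbouring gene were assigned was not tested.

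**Figure D5:**
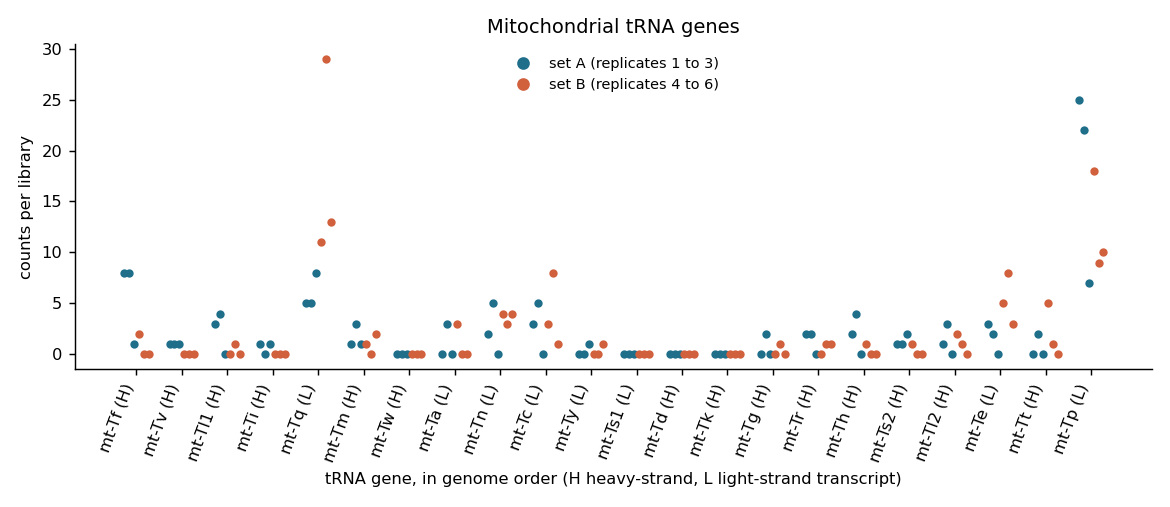
Counts in each of the 6 libraries for the 22 mitochondrial tRNA genes in genome order, with H for heavy-strand and L for light-strand genes, set A in blue and set B in orange. mt-Tp reaches 25 counts in replicate 1 and mt-Tq 29 in replicate 5, while 4 genes are at 0 in every library.

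The nuclear genes that complete, transcribe and translate this genome were taken as lists. The 77 nuclear subunits of the respiratory complexes averaged 3.40 ± 0.21 in log2(level + 1), with 72 at a level of 1 or more. The highest were Cox6a1 at 78.4 ± 12.8 and Ndufa1 at 73.8 ± 13.7, subunits of complexes IV and I, followed by Cox8a at 60.2 ± 15.1 and Cox6b1 at 59.9 ± 12.0, both of complex IV. The 13 mitochondrial mRNAs exceeded this list by 2.28 ± 0.13 (exact sign-flip test, adjusted p = 0.031; 6 of 6 libraries). That contrast became 5.37 without mt-Atp8 and the 5 genes with near-identical copies. These are the low-class mRNAs, so leaving them out could only raise it. Nuclear levels use the length of all annotated exons of a gene, and with the whole gene span as length the contrast was 3.81.

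The machinery was far less abundant. Of 35 genes for mitochondrial transcription and RNA processing 5 reached a level of 1. Rexo2, a mitochondrial oligoribonuclease, led at 5.14 ± 1.39. Hsd17b10, a subunit of mitochondrial RNase P, was at 5.09 ± 1.58, the RNA granule protein Grsf1 at 3.68 ± 1.36 and the tRNA-modifying enzyme Trit1 at 1.86 ± 0.469. The mitochondrial transcription factor Tfam was at 0.521 ± 0.275, the RNA polymerase Polrmt at 0.314 ± 0.140 and the mRNA-stabilising Lrpprc at 0.514 ± 0.102. None of the 15 genes for mitochondrial DNA maintenance reached 1, from Mpv17 at 0.891 ± 0.289, Tk2 at 0.580, Twnk at 0.513 and Dguok at 0.513 down to Primpol at 0.11, of whose 26 counts the receptor gene rate predicts 91.5%. Among 78 mitochondrial ribosomal protein genes 44 reached 1, led by Mrps21 at 12.6 ± 4.03, Mrps28 at 12.5, Mrps24 at 11.3 and Mrpl52 at 10.9. Of 9 regulators of mitochondrial biogenesis 2 reached 1, Esrrg at 1.66 and Ppara at 1.12, followed by Yy1 at 0.979 and Pprc1 at 0.972, with the coactivator Ppargc1a at 0.824 and Esrra lowest at 0.314. For Esrrg the receptor gene rate predicts 98.2% of its counts over its long span, so this level is not above background. The same rate predicts 29.7% of the counts of Lrpprc, 19.3% for Mrps28, 17.2% for Dguok, 16.2% for Tk2 and 14.7% for Trit1. Their levels and ranks are uncertain by that much. Cox4i1, Ndufa13, Fastkd5 and Mrps6 are listed at 0, and these and the other 5 genes of the lists at 0 lie 99.9 to 100% within other genes' spans, where reads may not have been assigned. A 0 there is not read as absence.

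Between the library sets no gene of these lists passed edgeR's adjusted threshold, against 0.0115% of all genes tested. At an unadjusted p of 0.05, 16 of 74 tested respiratory subunits were lower in set B and 1 higher, and the list's median log2 difference was -0.45, against -0.004 over all genes tested. For the 15 tested mitochondrial genes the median was -0.43, for mitochondrial ribosomal proteins -0.44 with 7 of 65 lower, and for transcription and RNA processing -0.63 with 4 of 20 lower. The mitochondrial DNA maintenance list had 3 of 7 lower and a median of -0.40. The biogenesis regulators went the other way, with a median of 0.54 and 3 of 8 higher. The receptor gene background was higher in set B as well, and it predicts 98.2% of the counts of Esrrg, 32.3% of those of Ppargc1a and 25.4% of those of Ppara; its part in the list's difference was not tested. Of all genes tested, 1407 (16.1%) were higher and 851 (9.76%) lower at this unadjusted threshold.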

How the data were processed

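The deposited files hold raw counts per gene, made by the authors. The submitters' processing notes name Trim Galore 0.6.4, FastQC, STAR 2.7.9a, SAMtools, featureCounts and the build mm10; the annotation release, strand setting and treatment of multiple alignments are not given in the sources used here. The deposited files also hold gene length, which for most genes is the whole span, so counts take in introns. The members and lists were chosen with earlier results of these data known. Levels are CPM, scaled to all counts, per kilobase, with deposited lengths for mitochondrial genes and GENCODE vM21 exon lengths for nuclear genes (53365 symbols matched, 99.9% of counts), and log2 values use a pseudocount of 1. Windows of 50 bases were matched exactly to annotated nuclear transcripts on both strands. Set B minus set A used edgeR 4.0.16 (TMM, filterByExpr, quasi-likelihood test); DESeq2 1.42.0 was an alternative. On simulated data for this comparison with 8723 genes, 56% of 100 genes changed 4-fold and 2% of 100 changed 2-fold were recovered, with a false share of 4.92%. The simulation gave all genes 1 common dispersion, with no shift in nuclear rRNA share and no outlying library. These shares may therefore not hold for the real libraries. Named were all mRNAs and rRNAs, the 4 highest and all empty tRNAs with mt-Tl1, mt-Tk and mt-Te, the 4 highest and the lowest gene of each list with Tfam, Polrmt, Lrpprc and Ppargc1a, and members past an adjusted p of 0.05. Libraries held 4670819 to 7072270 counts, and intervals cover counting error only.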

Additional observations from a re-analysis of the deposited data

Results flagged for a closer look

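Of 43 values checked over the 6 libraries, 6 had 1 library whose gap to the nearest other was, as a part of the whole range, above Dixon's 95% critical value for 6 samples; chance gives about 1 in 20. Replicate 2 was high for mt-Nd3, with 8.65 CPM against 3.53 to 4.95 in the other libraries, and for mt-Atp8, with 0.540 against 0 to 0.157. Replicate 5 gave the other 4. Its mt-Nd4 had 348 CPM against 460 to 524. Complex I mRNAs held 0.174% of its counts against 0.226 to 0.248%. The difference of complex IV mRNAs minus mt-Cytb was -4.95 there against -5.58 to -5.38 on the log2(level + 1) scale. Its counts over olfactory and vomeronasal receptor genes ran at 323 per megabase against 25.7 to 108.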

How the results depend on the processing

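The share of counts held by the 37 genes was 2.64% outside nuclear rRNA and 2.73% of protein-coding counts, and 1.22 to 1.31% with 1 library left out. With summed counts over summed length, heavy-strand mRNAs minus mt-Nd6 was -0.017, and with at least 10 counts per gene the tRNA contrast was -1.41. Without overlapping or near-identical genes, complex IV minus complex I was -0.36; the contrasts with complex V and mt-Nd6 had no genes left, and those of the 2 rRNAs and the tRNA strands were not run. The following were chosen after seeing the data. Where unshared windows served as length, mitochondrial genes with fewer than 10 such windows were left out. With unshared 50-base windows as length, complex IV minus complex I was 0.58, complex IV minus mt-Cytb -0.18, complex V minus complex IV -8.99, mt-Cytb minus complex I 0.75, heavy-strand mRNAs minus mt-Nd6 -0.48, rRNAs minus mRNAs 3.17, mt-Rnr2 minus mt-Rnr1 1.83 and mRNAs minus nuclear subunits 4.75; with 100-base windows the first was 0.12 and the mt-Nd6 contrast -0.67. Without mt-Atp8 and near-identical genes, which are the low class, these were -0.031 and 0.39. With 1 library left out no p under 0.0625 is possible, and the ranges were -2.32 to -2.22 (complex IV minus complex I), -5.48 to -5.36 (complex IV minus mt-Cytb), -3.34 to -3.18 (complex V minus IV), 3.04 to 3.22 (mt-Cytb minus complex I), -3.16 to -2.85 (heavy-strand mRNAs minus mt-Nd6), 5.45 to 5.71 (rRNAs minus mRNAs), 1.76 to 2.0 (mt-Rnr2 minus mt-Rnr1), -1.54 to -1.20 (tRNAs), 3.99 to 4.26 (mRNAs minus tRNAs) and 2.25 to 2.31 (mRNAs minus nuclear subunits). Between the sets, the genes past the adjusted threshold numbered 1 in edgeR, 725 in DESeq2, 2 without TMM, 993 without a filter and 0 to 2217 with 1 library left out (2217 without replicate 4, 735 without replicate 5); members numbered 0, 1 in DESeq2 and 0 to 3 with 1 library left out. The median log2 difference of all genes was 0.67 in DESeq2, 0.77 without a filter and 0.19 without TMM, the first 2 over other sets of genes. Differences near 0 changed sign: mt-Co3 was -0.11 in DESeq2, -0.24 without a filter and -0.24 to 0.18 with 1 library left out (-0.12, -0.22 and -0.24 without replicates 2, 3 and 4); mt-Rnr2 was 0.014 without TMM, -0.40 without replicate 4 and 0.019 without replicate 5; mt-Nd2 was -0.062 without a filter, -0.026 without replicate 4, 0.38 without replicate 5 and -0.028 without replicate 6. Causes were not tested. Low counts limit the low-class mRNAs and the tRNAs most.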
